A study of Mus musculus with 2 samples.

Results

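The genes described here are 10 transcription factors of endothelial identity, taken from the deposited table by symbol: Erg, Fli1, Ets1, Elk3, Sox7, Sox17, Sox18, Foxq1, Foxf2 and Lef1. All 10 were found among 53465 genes, of which 22040 are protein-coding. The series compared endothelial cells, the lining of blood vessels, isolated from C57Bl/6 mice that carry tie2-cre and were treated with NeuroD1, a transcription factor of neuronal differentiation, or with GFP, within work on NeuroD1 gene therapy for stroke. There was 1 library for NeuroD1 and 1 for GFP, both made from tie2-cre animals. Cells came from 3 mice and 10000 cells were lysed, per the labels' protocols, which do not say whether the 3 mice were pooled for each library or were all the animals used. Tie2-driven Cre is also known to be active in blood cells of mice, and the labels used here give neither vector, dose, time, age nor whether these animals had a stroke.

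ETS factors bind a GGAA core and keep endothelial genes such as those of adhesion molecules and receptors active, with ERG and FLI1 the most restricted to endothelium and blood. SOX7, SOX17 and SOX18 form the SOXF group, which acts with ETS factors in vessel growth and in arterial and lymphatic differentiation. FOXF2, FOXQ1 and LEF1 are known in brain endothelium, where Wnt signalling through beta-catenin and LEF or TCF partners maintains the blood-brain barrier.

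The members of each family share the part of the protein that touches DNA, and coding stretches from it are shown. Whether reads came from these stretches was not tested. Each is the 48-base coding stretch most alike within the family, found without gaps in the longest open reading frame of the GENCODE M21 transcripts (GRCm38). Each lies within a single exon. Capitals mark bases that differ from the first sequence of the family.
The ETS stretch encodes part of the helix that reads the GGAA core. It lies in exon 11 of Erg (chr16:95361124-95361171, minus strand), exon 9 of Fli1 (chr9:32424103-32424150, minus strand), exon 8 of Ets1 (chr9:32754249-32754296, plus strand) and exon 2 of Elk3 (chr10:93284772-93284819, minus strand).
Erg: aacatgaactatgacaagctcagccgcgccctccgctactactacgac
Fli1: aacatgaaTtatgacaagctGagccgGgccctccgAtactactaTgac
Ets1: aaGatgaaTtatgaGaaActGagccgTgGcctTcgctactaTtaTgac
Elk3: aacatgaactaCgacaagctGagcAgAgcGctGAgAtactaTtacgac
The SOXF stretch lies at the start of the HMG box, in exon 1 of Sox18 (chr2:181671243-181671290, minus strand), exon 4 of Sox17 (chr1:4493161-4493208, minus strand) and exon 1 of Sox7 (chr14:63943885-63943932, plus strand).
Sox18: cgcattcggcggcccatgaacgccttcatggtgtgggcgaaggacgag
Sox17: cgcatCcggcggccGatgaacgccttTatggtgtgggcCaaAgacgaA
Sox7: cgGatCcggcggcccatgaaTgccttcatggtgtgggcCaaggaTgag
The forkhead stretch covers the recognition helix, in exon 1 of Foxf2 (chr13:31626515-31626562, plus strand) and exon 1 of Foxq1 (chr13:31559397-31559444, plus strand).
Foxf2: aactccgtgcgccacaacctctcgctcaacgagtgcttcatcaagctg
Foxq1: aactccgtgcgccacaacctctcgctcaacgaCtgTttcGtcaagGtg

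Within these stretches Fli1 differed from Erg at 5 bases, Elk3 at 9 and Ets1 at 10. Sox7 differed from Sox18 at 5 bases and Sox17 at 6, and Foxq1 differed from Foxf2 at 4. No window of 50 bases was shared between transcripts of any 2 of the 10 genes. No source used here states the read length.

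Values are FPKM as deposited, that is fragments divided by exon length and by a factor for each library. Reads behind each value were recovered from the FPKM and the exon lengths, and came to 693 in the NeuroD1 library and 666 in the GFP library for the 10 genes together, with 18 to 156 per gene and library. Recovered reads came to about 2001430 in NeuroD1 and 2011130 in GFP, of which 851964 in NeuroD1 and 958799 in GFP lay outside the 19 genes above 1000 FPKM. The larger part of each library thus lay in those 19 genes. FPKM times exon length per read was 512.8 in NeuroD1 and 452.7 in GFP, which does not follow the totals. Neurod1 itself stood at 182 FPKM in NeuroD1 and 0.664 FPKM in GFP. Intervals are exact 95% intervals from the reads, and counting is the only error they cover. Since NeuroD1 and GFP have 1 library each, there is no replicate to set a difference against, and p-values were not computed. In these isolates fewer endothelial cells and less RNA per cell cannot be told apart.

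A level is set here beside the chemoreceptor genes, receptors of smell and taste with no known use in endothelium. Of 1514 such genes, 95% lay at or below 4.79 FPKM in NeuroD1 and 4.39 FPKM in GFP. Of the 10 factors, 7 lay above these values in both libraries. Sox17 and Foxq1 lay below them in both, and Sox7 lay below in NeuroD1 only. By FPKM, differences of these 3 genes are therefore between levels at which chemoreceptor genes are also found. The counting interval of Foxf2 also reached below the value in each library (4.21 to 9.04 FPKM in NeuroD1, 3.10 to 7.07 FPKM in GFP). That of Sox18 did so in GFP only (4.07 to 9.64 FPKM). These placements rest on division by exon length. Sox17, over 4772 bases, had 37 reads in NeuroD1 and 30 in GFP, and Sox18, over 1620 bases, had 37 and 23. Foxq1 had 34 reads in NeuroD1 and 26 in GFP, more than the 29 and 25 of Foxf2.

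Among ETS factors, Erg, which is needed for endothelial identity and junction stability, had the highest FPKM of the 10 genes in each library. By reads, with no division by exon length, Erg was in place 3 in each library, behind Ets1 and Lef1, and DRUG-seq primers tag the 3' end, where reads need not grow with length. Erg (ENSMUSG00000040732, chr16:95359169-95586593) stood at 16.9 FPKM in NeuroD1 (interval 13.9 to 20.3) and 12.1 FPKM in GFP (9.80 to 14.9), from 114 and 93 reads. That placed it above 98.6% of protein-coding genes in NeuroD1 and 97.8% in GFP. Its FPKM ratio of NeuroD1 over GFP was 1.39 (interval 1.05 to 1.85). Fli1 (ENSMUSG00000016087, chr9:32422204-32542861), a close relative of Erg that is also used in megakaryocytes, stood at 14.4 FPKM in NeuroD1 and 9.87 FPKM in GFP, from 98 and 76 reads. Its ratio was 1.46 (interval 1.07 to 1.997). Erg and Fli1 were thus higher in the NeuroD1 library by more than counting error, though not once their intervals were widened for the variance between the libraries.

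Ets1 and Elk3 differed less. Ets1 (ENSMUSG00000032035, chr9:32636221-32757820), an activator of angiogenic genes that lymphocytes also express, stood at 8.23 FPKM in NeuroD1 and 7.16 FPKM in GFP, from 136 and 134 reads, with a ratio of 1.15 (interval 0.899 to 1.47). Elk3 (ENSMUSG00000008398, chr10:93247414-93311135), a ternary complex factor that responds to Ras signalling, stood at 8.001 FPKM in NeuroD1 and 6.67 FPKM in GFP, with a ratio of 1.20 (interval 0.847 to 1.70). Both intervals include 1. Fli1 and Ets1 are neighbours on chromosome 9, 93.4 kb apart on opposite strands with 0 protein-coding genes between them. The 4 ETS members together summed to 47.5 FPKM in NeuroD1 and 35.8 FPKM in GFP, and Erg took 35.5% of that sum in NeuroD1 and 33.9% in GFP. In none of the 6 pairs of ETS members did the ratio of their levels differ between the libraries by more than counting error.

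**Figure D1:**
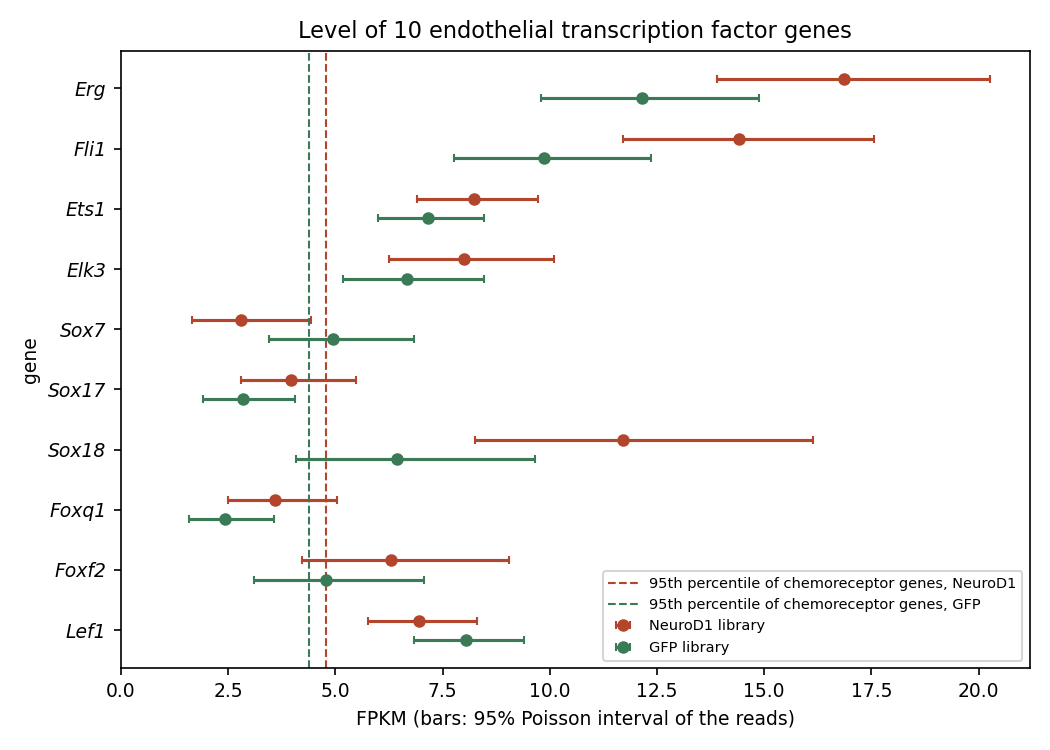
FPKM of the 10 factors (points) in the NeuroD1 library and the GFP library, with 95% Poisson intervals of the reads as bars and dashed lines at the 95th percentile of chemoreceptor genes in each library. Erg leads in both libraries, at 16.9 FPKM in NeuroD1 and 12.1 FPKM in GFP, while Sox17 and Foxq1 lie left of both lines.

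The SOXF genes did not share a direction. Sox18 (ENSMUSG00000046470, chr2:181669836-181671640), known for its part in lymphatic specification and vascular integrity, stood at 11.7 FPKM in NeuroD1 (interval 8.25 to 16.1) and 6.43 FPKM in GFP (4.07 to 9.64), from 37 and 23 reads. Its ratio of 1.82 (interval 1.05 to 3.21) was the highest of the 10 genes. Sox7 (ENSMUSG00000063060, chr14:63943673-63950732), which acts redundantly with its relatives in developing vessels, stood at 2.80 FPKM in NeuroD1 (interval 1.66 to 4.42) and 4.94 FPKM in GFP (3.46 to 6.84), from 18 and 36 reads. Its ratio of 0.566 was the lowest of the 10, with an interval of 0.303 to 1.02 that includes 1. Sox17 (ENSMUSG00000025902, chr1:4490931-4497354), a factor of arterial fate and a Wnt-responsive gene of brain endothelium, stood at 3.98 FPKM in NeuroD1 and 2.85 FPKM in GFP, with a ratio of 1.40 (interval 0.840 to 2.34).

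The balance within the SOXF group can be read inside each library, where no scaling between libraries enters. Sox18 made up 63.4% of the summed SOXF level in NeuroD1 and 45.2% in GFP. Sox7 made up 15.1% of it in NeuroD1 and 34.8% in GFP, and Sox17 21.5% in NeuroD1 and 20.02% in GFP. These shares rest on division by exon length, which is 1620 bases for Sox18, 4772 for Sox17 and 3299 for Sox7. By reads, Sox18 had 37, Sox17 37 and Sox7 18 in NeuroD1, against 23, 30 and 36 in GFP. The ratios that follow, taken between the libraries, are the same with or without that division. The level of Sox7 relative to Sox18 was 0.239 in NeuroD1 and 0.769 in GFP, a ratio of 0.311 between the libraries (exact conditional interval 0.134 to 0.716). Relative to Sox17, Sox7 stood at 0.704 in NeuroD1 and 1.74 in GFP, a ratio of 0.405 (interval 0.180 to 0.906). For Sox17 relative to Sox18 the interval of this ratio, 0.355 to 1.65, includes 1. These were the only 2 of the 10 pairs within families whose interval excludes 1.

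Over all 45 pairs of the 10 genes, 10 had such an interval, and each of the 10 pairs holds Sox7 or Lef1. Sox7 was in 7 of them and Lef1 in 3. Among the 28 pairs without Sox7 and Lef1 there were 0. Sox7 and Lef1 are the only members with an FPKM ratio below 1, at 0.566 and 0.864. This split of the pairs therefore restates the ratios of the single genes and was chosen from the same values. With counting variance multiplied by 1.76, the factor by which protein-coding genes varied more between the libraries than counting gives, 4 of the 45 pairs had an interval that excludes 1: Sox7 with Erg, Fli1 and Sox18, and Lef1 with Fli1. The pairs share genes and reads, and pairs of other genes were not computed, so these counts are a description of 2 libraries.

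Foxf2 and Foxq1 are neighbours in a forkhead cluster on chromosome 13, 64.8 kb apart on the plus strand with 0 protein-coding genes between them. Foxf2 (ENSMUSG00000038402, chr13:31625816-31631403), which brain pericytes also use in mice, stood at 6.29 FPKM in NeuroD1 and 4.79 FPKM in GFP, from 29 and 25 reads, with a ratio of 1.31 (interval 0.743 to 2.34). Foxq1 (ENSMUSG00000038415, chr13:31556134-31560976), enriched in brain endothelium, stood at 3.60 FPKM in NeuroD1 and 2.43 FPKM in GFP, from 34 and 26 reads, with a ratio of 1.48 (interval 0.863 to 2.57). Both intervals include 1. The next gene of the cluster, Foxc1, a factor of vascular development 175 kb from Foxf2, had 33 reads in NeuroD1 and 64 in GFP and a ratio of 0.584 (interval 0.372 to 0.902). The level of Foxq1 relative to Foxc1 was 1.24 in NeuroD1 and 0.490 in GFP, a ratio of 2.54 between the libraries (interval 1.24 to 5.18), and that of Foxf2 relative to Foxc1 was 2.17 in NeuroD1 and 0.966 in GFP, a ratio of 2.25 (interval 1.08 to 4.70). With the widened variance these intervals were 1.05 to 6.10 for Foxq1 and 0.912 to 5.55 for Foxf2, which includes 1. The comparison with Foxc1 was chosen after its values were seen.

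Lef1 (ENSMUSG00000027985, chr3:131110471-131224356), the DNA-binding partner of beta-catenin, stood at 6.94 FPKM in NeuroD1 (interval 5.75 to 8.31) and 8.04 FPKM in GFP (6.82 to 9.40). It held the most reads of the 10 genes in GFP, with 119 in NeuroD1 and 156 in GFP. Its ratio was 0.864 (interval 0.675 to 1.10). Relative to Lef1, Erg stood at 2.43 in NeuroD1 and 1.51 in GFP, a ratio of 1.61 (interval 1.10 to 2.35). The corresponding ratios were 1.69 (interval 1.13 to 2.53) for Fli1 and 2.11 (interval 1.15 to 3.92) for Sox18. With the widened variance the intervals of Erg, 0.992 to 2.60, and Sox18, 0.987 to 4.51, include 1, and that of Fli1, 1.02 to 2.81, does not.

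On the log2(FPKM + 1) scale, which understates the change of low genes, 8 of the 10 differences of NeuroD1 minus GFP were above 0, beside 48.4% of 20697 protein-coding genes at 1 FPKM or more in either library, and 7 of 10 were above 0 once the FPKM of each library were scaled to an equal total. Differences ran from -0.65 for Sox7 to 0.78 for Sox18. Of the 10 genes, 0 reached a log2 difference of 1 (2-fold higher) and 0 reached -1 (2-fold lower). Among the same protein-coding genes, 2.62% were 2-fold higher and 3.84% 2-fold lower. The median difference of the 10 factors was 0.35, beside -0.02 for those protein-coding genes. Ratio intervals lay above 1 for 3 of the 10 genes, Erg, Fli1 and Sox18, and below 1 for 0. Scaled to an equal FPKM total, they lay above 1 for 0 and below 1 for 2, Sox7 and Lef1. Gm10800 alone had a mean of 585775 FPKM, beside 912577 FPKM in NeuroD1 and 755296 FPKM in GFP summed over protein-coding genes. The equal-total scaling thus rests largely on this gene. With genes above 1000 FPKM left out of the equal total, the counts were 3 above 1 and 0 below. Median-of-ratios scaling over protein-coding genes gave the same counts, and both settings left 8 of 10 differences above 0. The background is 14791 protein-coding genes with 20 reads or more, of which 5.93% had intervals above 1 and 6.22% below 1.

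Protein-coding genes as abundant as Erg, Fli1 and Sox18 were mostly higher in NeuroD1 too, in 66.0%, 64.2% and 65.0% of the 500 genes nearest to each in mean FPKM. Over such neighbours the median difference was 0.12 around Erg, 0.11 around Fli1 and 0.10 around Sox18, against -0.07 around Sox7 and 0.03 around Lef1. With these medians subtracted, the difference was 0.32 for Erg, 0.40 for Fli1, 0.68 for Sox18, -0.58 for Sox7 and -0.21 for Lef1, and 0 ratio intervals lay above 1. Over protein-coding genes with 20 reads or more, the libraries varied by 1.76 times what counting gives. With counting variance multiplied by that value, the intervals widened to 0.965 to 1.997 for Erg, 0.981 to 2.17 for Fli1 and 0.913 to 3.63 for Sox18, so that 0 of 10 exclude 1. The ratio of Sox7 to Sox18 between the libraries then had an interval of 0.112 to 0.862, and that of Sox7 to Sox17 one of 0.151 to 1.09. The first of these was the only pair within families whose widened interval excludes 1.

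**Figure D2:**
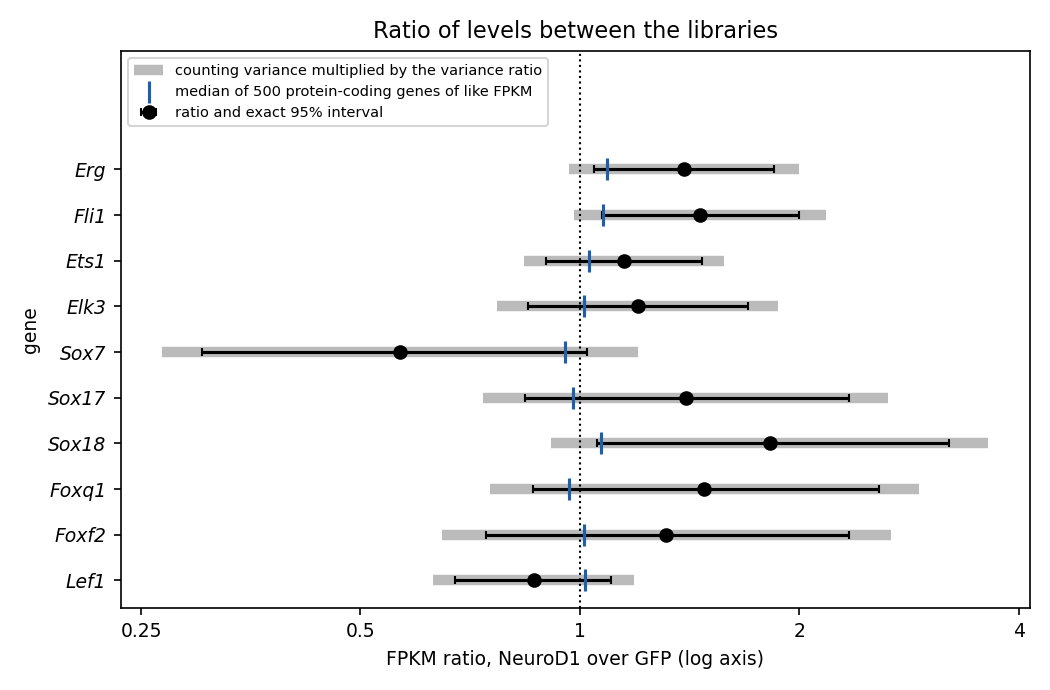
FPKM ratio of NeuroD1 over GFP for each factor on a log axis, with the exact 95% interval (black), the interval with counting variance multiplied by 1.76 (grey) and the median of 500 protein-coding genes of like FPKM (blue). The black intervals of Erg, Fli1 and Sox18 lie above 1, and all 10 grey intervals include 1.

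**Figure D3:**
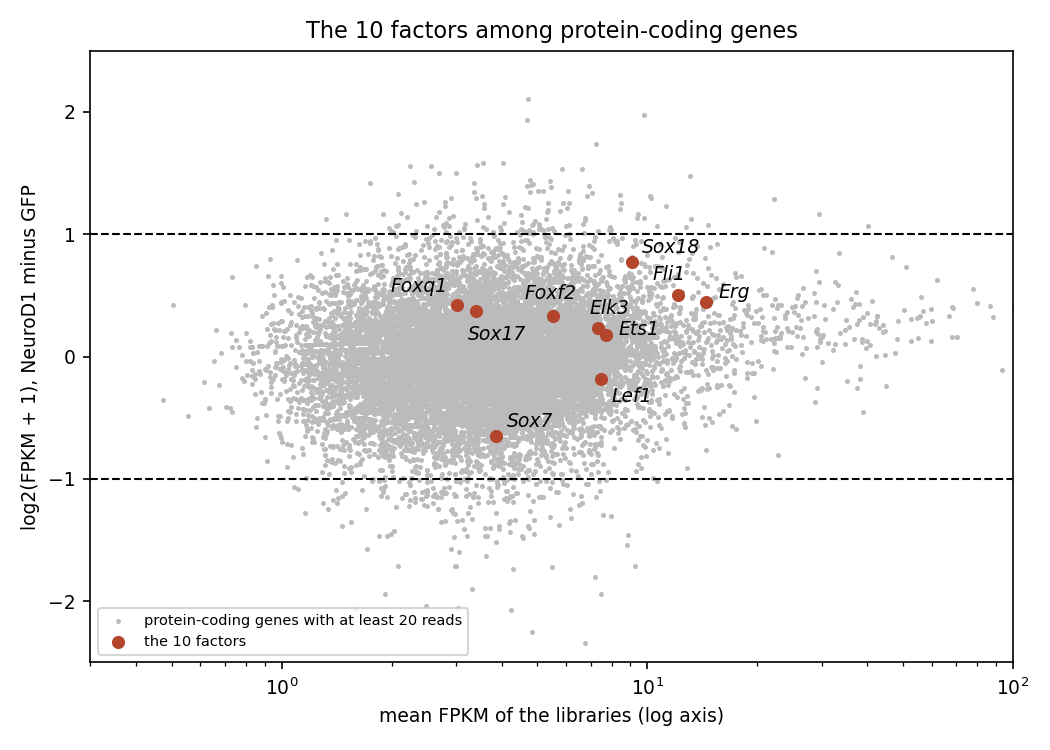
Difference in log2(FPKM + 1), NeuroD1 minus GFP, against mean FPKM on a log axis for 14762 protein-coding genes with 20 reads or more (grey, 29 more lie outside the axes) and the 10 factors (red), with dashed lines at a 2-fold difference. Sox18, at 0.78, and Sox7, at -0.65, lie farthest from 0 among the factors, and none lies outside the dashed lines.

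The order of the factors by FPKM was Erg, Fli1, Sox18, Ets1, Elk3, Lef1, Foxf2, Sox17, Foxq1 and Sox7 in NeuroD1. In GFP it was Erg, Fli1, Lef1, Ets1, Elk3, Sox18, Sox7, Foxf2, Sox17 and Foxq1. In 0 of the 9 neighbouring pairs of either order did the interval of the ratio of their levels exclude 1. Pairs farther apart in the order were not compared within a library. Sox18 was in place 3 in NeuroD1 and place 6 in GFP, and Sox7 in place 10 in NeuroD1 and place 7 in GFP. Lef1 was in place 6 in NeuroD1 and place 3 in GFP.

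Of 22 other ETS genes, all measured at 1 FPKM or more in either library, 12 were higher and 10 lower in NeuroD1, with a median difference of 0.04, 0 past 2-fold and 0 of 19 with at least 20 reads whose interval excludes 1. Erf, an ETS repressor, stood at 6.97 FPKM in NeuroD1 and 5.40 FPKM in GFP (ratio interval 0.839 to 1.99). Ets2, the closest relative of Ets1, stood at 7.51 FPKM in NeuroD1 and 4.61 FPKM in GFP, and lacks an interval because its reads could not be recovered. Etv2, the factor that starts endothelial fate in embryos, had 7 reads in NeuroD1 and 13 in GFP.

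Of 16 other SOX genes, 10 were higher and 6 lower in NeuroD1, with a median difference of 0.28. Sox15 was 2-fold higher, with 13 reads in NeuroD1 and 3 in GFP (ratio interval 1.35 to 26.9), and Sox3, a gene of neural progenitors, was 2-fold lower, with 2 reads in NeuroD1 and 12 in GFP (ratio interval 0.0205 to 0.848). Among the 12 with at least 20 reads, the intervals of Sox1, with 45 reads in NeuroD1 and 30 in GFP (ratio 1.70, interval 1.05 to 2.79), and Sox11, with 68 reads in NeuroD1 and 48 in GFP (ratio 1.605, interval 1.09 to 2.37), lay above 1. That of Sox6, with 33 reads in NeuroD1 and 66 in GFP (ratio 0.566, interval 0.361 to 0.873), lay below 1. Sox1 is a gene of neural progenitors and Sox11 one of immature neurons.

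Of 34 other forkhead genes, 15 were higher and 19 lower, with a median difference of -0.03. The intervals of 3 of the 24 with at least 20 reads lay above 1, namely Foxk1, Foxj3 and Foxa3, and those of 3 lay below 1, namely Foxc1, Foxc2 and Foxl1. Foxc2, which acts with Foxc1 in arterial and lymphatic development, was the only one past a log2(FPKM + 1) difference of 1, with 3 reads in NeuroD1 and 20 in GFP (ratio 0.170, interval 0.0323 to 0.573). Foxl1 had 9 reads in NeuroD1 and 23 in GFP (ratio 0.443, interval 0.181 to 0.994). Foxa3, best known from liver, was the most abundant forkhead gene at 47.8 FPKM in NeuroD1 and 34.7 FPKM in GFP (ratio 1.38, interval 1.11 to 1.72), and its exons overlap those of 0 other annotated genes.

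Of 21 genes of the LEF/TCF group and the brain endothelial Wnt pathway, 9 were higher and 12 lower in NeuroD1, with a median difference of -0.05, 0 past 2-fold and 0 of 17 with an interval that excludes 1. Adgra2, a co-receptor for WNT7 ligands, stood at 15.6 FPKM in NeuroD1 and 15.5 FPKM in GFP (ratio interval 0.817 to 1.24). Tcf7, a relative of Lef1, stood at 4.49 FPKM in NeuroD1 and 6.04 FPKM in GFP (ratio interval 0.420 to 1.30), and Tcf7l1 at 7.45 FPKM in NeuroD1 and 7.84 FPKM in GFP (ratio interval 0.656 to 1.37).

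Of 20 endothelial genes known as targets of ETS or SOXF factors, 11 were higher and 9 lower, with a median difference of 0.08 and 0 past 2-fold. The intervals of 2 of the 19 with at least 20 reads lay above 1. These were Egfl7, a secreted regulator of vessel formation, at 9.88 FPKM in NeuroD1 and 5.56 FPKM in GFP (ratio 1.78, interval 1.20 to 2.65), and Vwf, the von Willebrand factor, at 8.11 FPKM in NeuroD1 and 6.06 FPKM in GFP (ratio 1.34, interval 1.11 to 1.61). Flt1, a receptor for VEGF, stood at 21.3 FPKM in NeuroD1 and 22.9 FPKM in GFP (ratio interval 0.829 to 1.04). Icam2, an adhesion molecule that ERG is known to activate, stood at 5.39 FPKM in NeuroD1 and 8.80 FPKM in GFP (ratio 0.612, interval 0.337 to 1.08).

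Of 16 other endothelial transcription factors, 6 were higher and 10 lower, with a median difference of -0.12. Gata2, which works beside ETS factors in endothelium and blood progenitors, had 34 reads in NeuroD1 and 75 in GFP and was the only one of 13 whose interval excludes 1 (ratio 0.513, interval 0.332 to 0.780). Hhex differed about as much, at 4.81 FPKM in NeuroD1 and 8.97 FPKM in GFP. It lacks an interval because its reads could not be recovered. Klf2, a factor induced by flow, stood at 25.3 FPKM in NeuroD1 and 28.7 FPKM in GFP (ratio interval 0.662 to 1.17). Of 6 factors of mesenchymal transition, Snai1 was 2-fold higher, with 11 reads in NeuroD1 and 3 in GFP (ratio 4.15, interval 1.10 to 23.2). Twist2 had 7 reads in NeuroD1 and 1 in GFP. Zeb2, with 220 reads in NeuroD1 and 226 in GFP (ratio interval 0.912 to 1.33), and Zeb1, with 62 reads in NeuroD1 and 81 in GFP (ratio interval 0.613 to 1.22), had intervals that include 1.

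**Figure D4:**
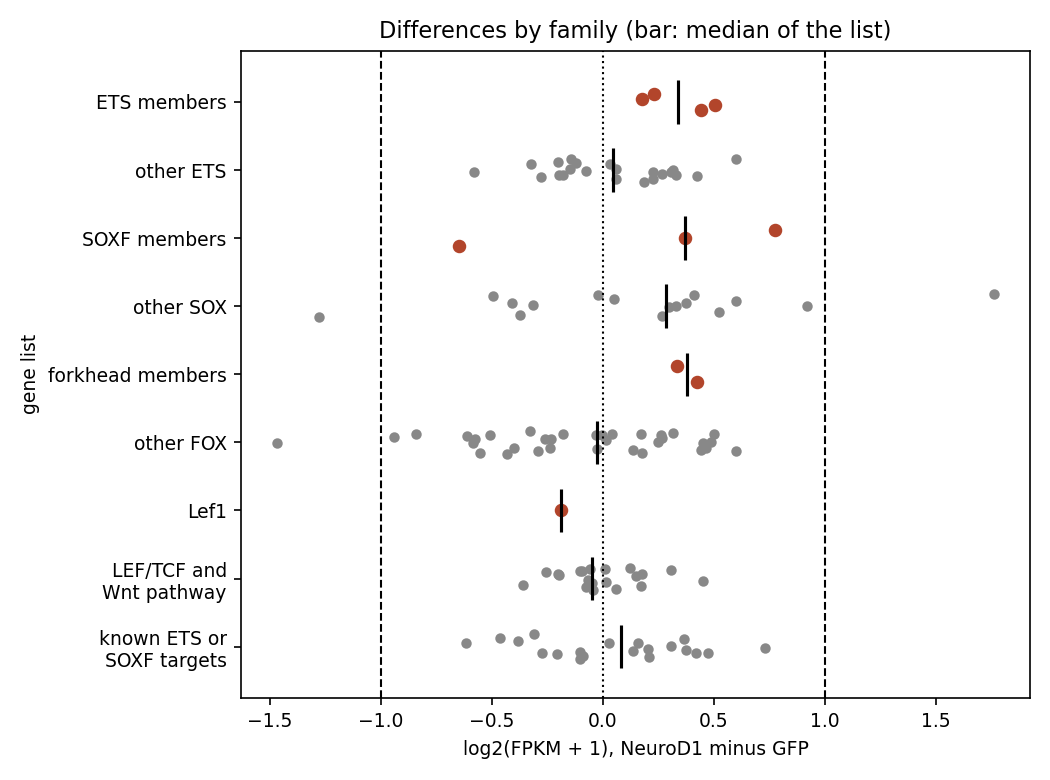
Difference in log2(FPKM + 1), NeuroD1 minus GFP, for the 10 factors by family (red) and for the other genes of each family, the Wnt pathway and known targets (grey), with a bar at each list's median and dashed lines at a 2-fold difference. The ETS members lie from 0.18 to 0.50. Of the other ETS genes, 12 lie above 0 and 10 below, with a median of 0.04. Erf and Ets2, the highest of these in mean FPKM, lie at 0.32 and 0.60. The lists were not matched for FPKM.

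The endothelial label was checked against markers. All 15 pan-endothelial markers were above 0 in both libraries, as were 96.0% of chemoreceptor genes in NeuroD1 and 97.7% in GFP. Being above 0 therefore does not set a marker apart. The 15 markers had a summed level of 315 FPKM in NeuroD1 and 280 FPKM in GFP and a median difference of 0.16. The intervals of 4 of the 14 with at least 20 reads lay above 1 and 0 lay below. Several members are also expressed by blood cells or pericytes, so markers of those cells are given here. The 11 lymphocyte markers summed to 43.0 FPKM in NeuroD1 and 35.6 FPKM in GFP, with 0 of 5 intervals that exclude 1. The 7 platelet and megakaryocyte markers summed to 16.5 FPKM in NeuroD1 and 28.3 FPKM in GFP, and all 7 were lower in NeuroD1, with the interval of Gp1ba (ratio 0.497, interval 0.297 to 0.808) below 1. The 10 microglia and macrophage markers summed to 39.3 FPKM in NeuroD1 and 41.1 FPKM in GFP, with 8 lower in NeuroD1. The 10 mural cell markers summed to 30.9 FPKM in NeuroD1 and 35.2 FPKM in GFP. Of the 9 measured, 7 were lower in NeuroD1, with the interval of Kcnj8 (ratio 0.179, interval 0.0339 to 0.608) below 1, while Acta2 stood at 10.9 FPKM in NeuroD1 and 7.63 FPKM in GFP. The summed level was 60.4 FPKM in NeuroD1 and 50.7 FPKM in GFP for 9 neuron markers, 18.7 FPKM in NeuroD1 and 19.7 FPKM in GFP for 7 astrocyte markers, and 22.4 FPKM in NeuroD1 and 19.6 FPKM in GFP for 8 markers of the oligodendrocyte lineage. In these lists the intervals of Slc17a7 (1.04 to 2.41), Slc1a2 (1.94 to 5.60) and Cspg5 (1.16 to 2.33) lay above 1 and that of Aldh1l1 (0.172 to 0.766) below 1. Of the 62 markers in these 7 lists, 0 were at 0 in either library, and 43 lay at or below the 95th percentile of chemoreceptor genes in both. Of the 15 pan-endothelial markers, 13 lay above it in both. Markers of other cells above it in both include Rbfox3 of neurons, at 31.0 FPKM in NeuroD1 and 26.8 FPKM in GFP, higher than Erg. Tyrobp of microglia stood at 17.7 FPKM in NeuroD1 and 11.5 FPKM in GFP, and Tubb3 of neurons at 12.4 FPKM in NeuroD1 and 8.97 FPKM in GFP. The part of these cells in the differences of the 10 factors was not tested.

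Some members share exon bases with genes on the opposite strand, and no source used here says how strand, or reads over more than 1 gene, were treated. Of the 50-base windows of Foxq1 transcripts, 65.7% also occur in A530084C06Rik, which overlaps its exons by 3200 bases and was listed at 0 in both libraries. The share was 15.0% for Sox17, with Gm37587 at 3 reads in NeuroD1 and 3 in GFP, 13.7% for Lef1, with Gm43352 at 9 reads in NeuroD1 and 23 in GFP, and 5.90% for Elk3, which overlaps Cdk17. It was 2.12% for Foxf2 and at most 0.292% for the other 5 genes. Reads of these pairs cannot be told apart if strand was not used.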

How the data were processed

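The authors deposited FPKM values in a table with a column for each library. Tools named in the submitters' processing notes are the aligner Bowtie2 (2.3.5.1), the counter featureCounts (1.6.3) and DESeq, unversioned, on GRCm38. Per the labels' protocols, RNA was reverse transcribed with DRUG-seq primers, which tag transcripts at the 3' end. No source used here says whether molecular identifiers were collapsed.

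Multiplying FPKM by the merged exon length of GENCODE M21 gave whole multiples of 1 step per library, 512.8 in NeuroD1 and 452.7 in GFP. Within a tolerance of 0.02 reads, 51162 genes (95.7%) and all 10 members gave whole reads in both. No further scaling was applied. Differences are log2(FPKM + 1), with members at 1 FPKM or more in either library counted. Ratio intervals are Clopper-Pearson given the summed reads, level intervals are Poisson, and intervals for ratios of pairs are exact conditional ones for an odds ratio. Read recovery and ratio intervals were tested on simulated reads that held counting error only. That test does not bear on the variance beyond counting seen between the libraries.

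The members and lists were chosen with earlier results of these data known. From each list the text names the 2 genes with the highest mean FPKM or the 2 with the largest differences at 20 reads or more, and those whose interval excludes 1, though not all of them. Hhex is named in addition, for its difference. Likeness of pattern was not ranked, since 2 libraries give 1 difference per gene. Alternatives were other pseudocounts, minimums, scalings and exon lengths, and subtraction of the chemoreceptor median. Software was Python 3.11.15 with pandas 2.3.3, numpy 2.4.6, matplotlib 3.10.9 and scipy 1.17.1.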

Additional observations from a re-analysis of the deposited data

How the results depend on the processing

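The 10 factors had 0 members past 2-fold in either direction under each alternative run, and the pseudocount, scaling and subtraction settings left all 70 member differences within their counting intervals. The median difference of the members, 0.35, was 0.20 with a pseudocount of 5, 0.16 after scaling to an equal FPKM total and 0.49 with the chemoreceptor median subtracted. Scaling to an equal total also shifts, by construction, the median of all protein-coding genes at 1 FPKM or more, to -0.20 against -0.02. Intervals above 1, 3 as deposited, numbered 0 with an equal FPKM total, 0 with the median of genes of like FPKM subtracted and 0 with counting variance multiplied by 1.76, a setting chosen after seeing the data. Intervals below 1, 0 as deposited, numbered 2 with an equal FPKM total, those of Sox7 and Lef1. With genes above 1000 FPKM left out of that total, 3 intervals lay above 1 and 0 below. Median-of-ratios scaling over protein-coding genes gave the same counts, and the median difference of the members was 0.36 in both settings. At a minimum of 5 FPKM, 7 members were counted and 6 were above 0. With the length of the longest transcript in place of merged exons, whole reads were recovered for 4 of 10 members and 66.0% of genes. Ratios between 2 genes within a library do not depend on the scaling. No paired analysis was possible because NeuroD1 and GFP have a single library each; for the same reason no replicate could be left out. At 54 to 275 reads per gene over both libraries, ratios as far from 1 as 0.566 and 1.48 had intervals that include 1.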
